A study of Mus musculus with 6 samples.

Results

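The 9 genes described here encode the coat, scaffold and neck proteins of caveolae, and they were followed in cultured mouse lung fibroblasts that were left untreated or exposed to DKK1, a secreted Wnt antagonist that binds the receptors LRP5 and LRP6. They were chosen by gene name, as the 3 caveolins (Cav1, Cav2, Cav3), the 4 cavins (Cavin1, Cavin2, Cavin3, Cavin4) and 2 proteins of the caveolar neck (Ehd2, Pacsin2), with earlier results of the DKK1 contrast in view, in which Cav1 stood among the genes called lower. Their values in that contrast are therefore a description and no independent support for any pattern. All 9 were found among the 45706 gene rows of the table, and all 9 were among the 14635 genes with enough counts to test. Wild-type fibroblasts were grown out of collagenase-digested mouse lungs, and the DKK1 samples spent 24 hours with 30 ng/ml of the recombinant mouse protein. The series asks which genes DKK1 affects in these cells. There were 3 control and 3 DKK1 samples, numbered 1 to 3 in each group, and RNA was measured by bulk sequencing. Strain, age and sex of the mice, and whether a number stands for an animal, a culture or a day, are not given in the sources used here, so the tests measure only the spread between these samples, which may be technical.

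Caveolae are small flask-shaped pits of the plasma membrane. Caveolins insert into the inner leaflet as oligomers, and cavins form a peripheral coat around them. Cav1 is required for caveolae outside striated muscle, Cav2 assembles with it, and Cav3 takes its place in muscle cells. Cavin1 is needed to form the coat in all these tissues, Cavin2 and Cavin3 are recruited through it, and Cavin4 is the muscle-enriched member. Ehd2 is an ATPase at the neck that holds caveolae at the cell surface, and Pacsin2 is an F-BAR protein that bends membrane there. Fibroblasts, endothelial cells, adipocytes and alveolar type 1 cells are known for their many caveolae.

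Library totals ran from 22565917 to 34727102 counts. Fibroblast markers were abundant, with 9 genes summing to 12590 to 15060 CPM (counts scaled to the library total), although the proteoglycan gene Lum, also on that list, was low at 1.77 to 2.72 CPM. Other caveolae-bearing cells left a small signal: 7 endothelial markers summed to 23.3 to 32.0 CPM in replicates 1 and 2 of either group and to 67.7 and 68.1 CPM in the replicate 3 libraries, and 5 alveolar type 1 markers to 8.21 to 9.88 and 14.0 to 15.1 CPM. Of 5 adipocyte markers, Plin1 and Cidec had no count in any library and Adipoq at most 2, while Lipe (5.13 to 7.33 CPM) and Fabp4 (2.51 to 4.25 CPM) were found in every library. Counts of epithelial, mesothelial and leukocyte markers were higher in replicate 3 of both groups as well. In bulk RNA, fewer cells of a type and less RNA per cell cannot be told apart.

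Where the genes lie and what precedes their starts is shown first. Whether the position of a gene bears on its level was not tested. In the GENCODE M21 annotation of GRCm38, Cav2 occupies chr6:17281185-17289115 and Cav1 chr6:17306335-17341452, on the same strand with 17.2 kb between them; the other 7 genes are not adjacent to any of the set. Cav3 is at chr6:112459505-112472872, Cavin1 at chr11:100956733-100970887, Cavin2 at chr1:51289126-51302960 and Cavin3 at chr7:105480083-105482300. Cavin4 is at chr4:48663514-48673502, Ehd2 at chr7:15946958-15967567 and Pacsin2 at chr15:83375607-83464606. An antisense gene, Gm15581, overlaps Cav1 and Cav2, but it shares 0 exonic bases with either and had no count in any library. RefSeq's table of promoters (GRCm38.p6) held an entry for 8 of the 9 genes, all but Cavin3. The 250 bases before the start are printed for Cav1 (chr6:17306085-17306334) and Cav2 (chr6:17280935-17281184), both on the plus strand, and for Cavin2 (chr1:51288876-51289125, plus strand), the abundant cavin whose level was not lower. Capitals mark any of 4 searched motifs, read on both strands: the GC box (GGGCGG), the CCAAT box (CCAAT), the TATA box (TATAAA) and the TCF/LEF motif of Wnt signalling (spelled CTTTGAA in 1 form and CTTTGAT in another, as well as CTTTGTT and also CTTTGTA).
Cav1: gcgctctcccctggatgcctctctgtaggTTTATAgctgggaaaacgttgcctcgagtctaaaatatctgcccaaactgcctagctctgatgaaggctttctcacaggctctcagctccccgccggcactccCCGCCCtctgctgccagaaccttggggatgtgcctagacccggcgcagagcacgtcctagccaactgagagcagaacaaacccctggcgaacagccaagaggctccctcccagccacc
Cav2: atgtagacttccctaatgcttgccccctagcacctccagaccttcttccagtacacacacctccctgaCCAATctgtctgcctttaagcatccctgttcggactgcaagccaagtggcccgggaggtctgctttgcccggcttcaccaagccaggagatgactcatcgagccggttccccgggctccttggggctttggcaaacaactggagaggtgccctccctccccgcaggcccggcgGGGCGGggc
Cavin2: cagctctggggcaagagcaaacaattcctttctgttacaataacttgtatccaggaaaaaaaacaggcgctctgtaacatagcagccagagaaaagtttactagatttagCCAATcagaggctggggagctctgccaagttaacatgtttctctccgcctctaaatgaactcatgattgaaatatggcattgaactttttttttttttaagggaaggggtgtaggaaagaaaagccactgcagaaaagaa

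RefSeq lists 2 starts for Cav1. The printed window, before the first, held a GC box and a TATA box match, both on the minus strand, the latter far upstream at 221 bases before the start, and the window before the second start (chr6:17307390-17307639, 60.8% G and C) held none of the 4 motifs. The Cav2 window held a GC box 9 bases before the start and a CCAAT box, and the Cavin2 window a CCAAT box alone. Base composition differed, with 59.6% G and C in the printed Cav1 window, 62.0% in that of Cav2 and 40.4% in that of Cavin2. Pacsin2, also lower with DKK1, had 62.0%, 46.4% and 50.8% before its listed starts. Cavin1 had 67.6% before both, Ehd2 58.0%, Cav3 56.0% and Cavin4 48.8%. A link between composition and the change with DKK1 was not tested. Of the 12 windows of the 8 genes, 6 held a GC box and 6 a CCAAT box, against 32.7% and 33.8% of the 32851 promoter windows of the same length in the table; the 2 Cavin1 windows overlap and count in both. TATA box letters were found in 2 of the 12 (Cav1 and Cavin4, in the latter 30 bases before the start), against 12.4% of all windows. No member window held the TCF/LEF letters, which 14.8% of all windows do. A match is a description of the letters, and no match says only that they are not in these windows. The overlapping windows before the 2 listed starts of Cavin1 and part of that of Ehd2 lie inside exons that GENCODE annotates, so those are not printed.

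In untreated fibroblasts the caveolae genes fell into 3 tiers of level per length. Per kilobase of the mean length of the transcripts listed for each gene, Cavin1 stood at 364 ± 15.3 CPM per kilobase (SD, n = 3, TMM-scaled), Cav1 at 358.6 ± 23.5, Ehd2 at 216 ± 10.0 and Cavin2 at 143.1 ± 3.42. A middle tier followed with Cavin3 at 48.1 ± 2.24, Pacsin2 at 39.3 ± 0.0771 and Cav2 at 37.7 ± 3.06. Cav3 at 2.30 ± 0.322 and Cavin4 at 0.642 ± 0.0514, both muscle forms, came last. The ranges of neighbours in this order overlapped between Cavin1 and Cav1 and between Pacsin2 and Cav2, and between no other neighbours. This order rests in part on the lengths: with the longest listed transcript in place of the mean, Cav1, whose 10 listed transcripts average 925.4 bases against 2746 for the longest, went to 120.8 ± 7.90 CPM per kilobase. It then ranked below Cavin1 at 216.3 ± 9.10 and Cavin2, and its range overlapped that of Ehd2 at 115.9 ± 5.37.

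**Figure D1:**
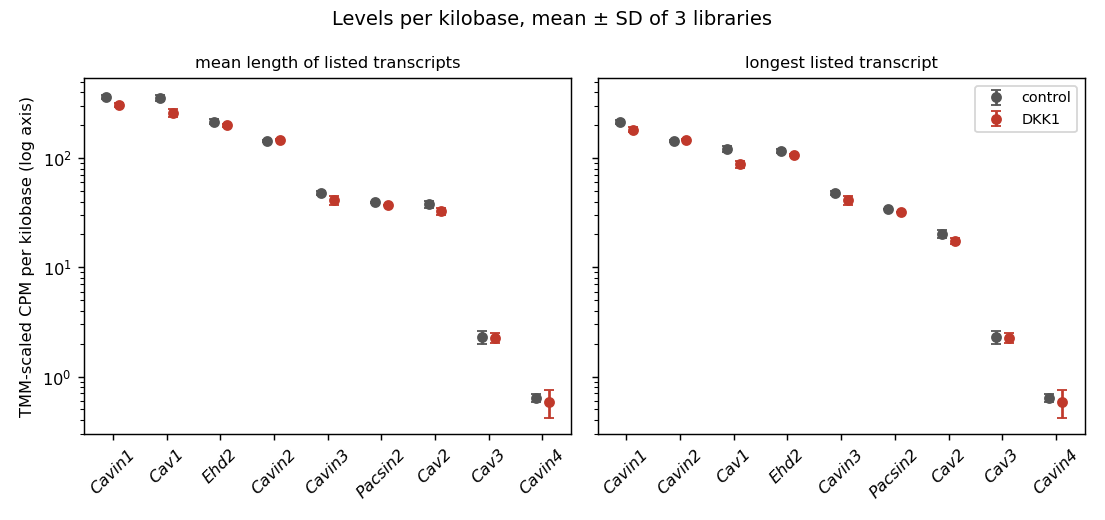
Level per kilobase of each gene on a log axis, as mean ± SD of 3 control (grey) and 3 DKK1 (red) libraries, with lengths taken as the mean of the listed transcripts (left) or the longest one (right). Cavin1 leads in both panels, Cav1 stands at 358.6 CPM per kilobase in control on the left and at 120.8 on the right, and Cav3 and Cavin4 are lowest in both.

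The muscle forms had the fewest counts of the set. Cav3 had 53 to 99 counts and Cavin4 24 to 46 counts per library. Of 10 striated muscle markers, Myod1, Myog, Mb and Myh6 had no count in any library and Ckm had at most 3. Tnnt2, the cardiac troponin T gene, was present in every library at 6.68 to 9.00 CPM (199 to 247 counts), Ryr1 had 12 to 23 counts and Nkx2-5 at most 6. Acta1 (20.9 to 34.0 CPM) and Des (44.2 to 105 CPM), which smooth muscle or myofibroblasts can also express, were present too. The list summed to 98.0 to 144 CPM in control and 73.6 to 102 CPM with DKK1.

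In DKK1-treated fibroblasts the mean level of Cav1, the principal caveolin, was 0.727 of that in control. Cavin1, the essential cavin, was at 0.849, Cav2 and Cavin3 at 0.865 and 0.858, and the neck genes Ehd2 and Pacsin2 at 0.925 and 0.947, while Cavin2 was at 1.03. Together the 9 genes took 0.238% ± 0.00709 of all counts in control and 0.212% ± 0.00484 in DKK1 libraries (SD, n = 3 each). In the unpaired fit (edgeR quasi-likelihood test, Benjamini-Hochberg adjustment over all 14635 genes), 1 of the 9, Cav1, was called lower at an adjusted p under 0.05 and 0 were called higher, where 0.198% of all tested genes were called lower. With the replicate number as a block, 5 of the 9 were called lower, Cav1, Cav2, Cavin1, Cavin3 and Ehd2, and 0 higher, where 4.46% of all tested genes were called lower. The groups did not overlap and DKK1 was lower for 6 of the 9, the same 5 and Pacsin2, where this held for 7.14% of tested genes. Their median log2 fold change was -0.12 without and -0.14 with the block, and the median of all tested genes was 0 in both fits. DKK1 was lower in all 3 same-numbered pairs for those 6 genes, as it was for 20.8% of tested genes. Nothing is read from these counts, since the genes were proposed with this contrast known.

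**Figure D2:**
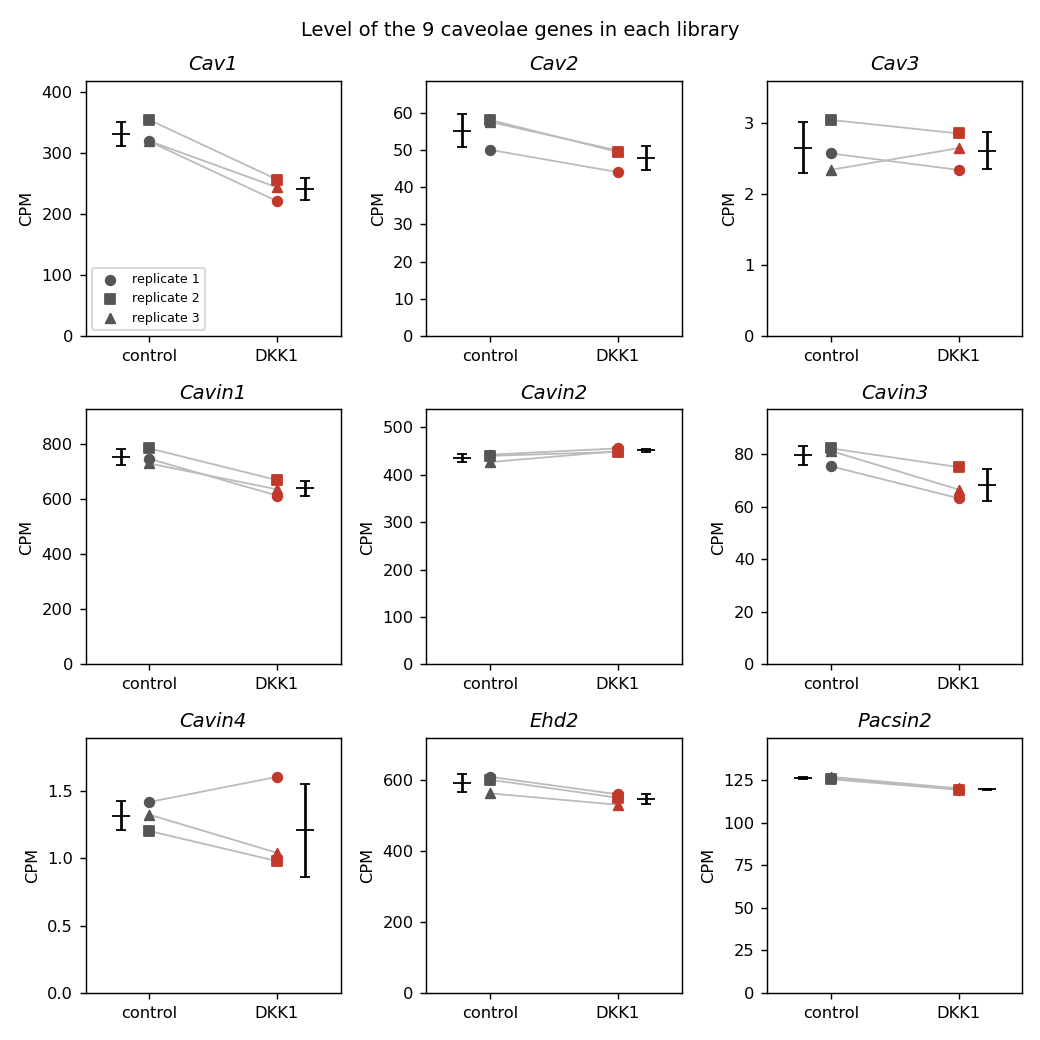
CPM of each gene in the 3 control (grey) and 3 DKK1 (red) libraries, with marker shape for the replicate number, lines joining the same number, and bars for the mean ± SD beside them. Lines run downward in all 3 pairs for Cav1, Cav2, Cavin1, Cavin3, Ehd2 and Pacsin2, upward in all 3 for Cavin2, and both ways for Cav3 and Cavin4.

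Among the caveolins, Cav1 (ENSMUSG00000007655) was measured at 319, 354 and 319.6 CPM in control replicates 1, 2 and 3 and at 221, 257 and 244 CPM in the DKK1 replicates. Its highest DKK1 library stayed below its lowest control library, and replicate 2 was the highest of its group on both sides. The means were 331 ± 20.2 and 240.5 ± 18.0 CPM (SD, n = 3 each), and the unpaired log2 fold change was -0.47 (SE 0.06, adjusted p = 0.0164). It stayed at -0.47 in the blocked fit, where the SE was 0.03 (adjusted p = 1.37e-07). The unpaired call ended without control replicate 1 (adjusted p = 0.0522), control replicate 2 (0.061) or DKK1 replicate 1 (0.0618), with log2 fold changes of -0.492, -0.412 and -0.41, and held without each of the other 3 libraries.

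Cav2 (ENSMUSG00000000058) was found at 49.99, 58.0 and 57.5 CPM in control and at 44.0, 49.4 and 49.8 CPM with DKK1. Control replicate 1 was almost as low as the highest DKK1 library, so the groups were separate by a narrow margin, and replicate 1 was the lowest of both. Its log2 fold change was -0.22 (SE 0.07, adjusted p = 0.292), and -0.21 with the block (SE 0.04, adjusted p = 0.00158). Under DESeq2 with the block it was not called (adjusted p = 0.0871).
Cav3 (ENSMUSG00000062694) ranged from 2.34 to 3.04 CPM in control and from 2.34 to 2.85 CPM with DKK1. The groups overlapped, and the log2 fold change of -0.03 had an SE of 0.18, so small changes could not be seen with so few counts.

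Among the cavins, Cavin1 (ENSMUSG00000004044), the most abundant, stood at 746, 784 and 729 CPM in control and at 613, 669 and 635 CPM with DKK1. Every DKK1 library was below every control library, and replicate 2 was again the highest of both groups. The log2 fold change was -0.24 (SE 0.04), just outside the threshold when unpaired (adjusted p = 0.0568) and inside it with the block (SE 0.02, adjusted p = 4.6e-06). Unpaired fits with library totals alone, without a low-count filter and in DESeq2 also called it (adjusted p = 0.0489, 0.00445 and 0.000231). It was not called with unrounded counts (0.0569), DESeq2 size factors (0.0544), at least 10 counts in every sample (0.053) or limma-voom (0.0516). Nor was it with the GC and length trend removed (0.0727) or both replicate 3 libraries left out (0.0943). Every unpaired fit without 1 library left it uncalled as well (adjusted p = 0.0652 to 0.196).

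Cavin3 (ENSMUSG00000037060), which binds Cavin1, had 75.5, 82.3 and 81.3 CPM in control and 63.3, 75.1 and 66.6 CPM with DKK1. DKK1 replicate 2 came within 1 CPM of control replicate 1, and the groups did not overlap. Its log2 fold change was -0.23 (SE 0.07, adjusted p = 0.245) and with the block -0.22 (SE 0.04, adjusted p = 0.00122). An uncharacterised transcript, Gm45667, overlaps 374 of its 1662 exonic bases on the opposite strand and has no row in the table used, and the strand setting of the counting is not given in the sources used here, so its level carries that uncertainty.

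Cavin2 (ENSMUSG00000045954), which binds phosphatidylserine, went the other way by a small amount. It was measured at 442, 439.6 and 426 CPM in control and at 455, 448 and 449.5 CPM with DKK1, with means of 436 ± 8.45 and 451 ± 3.84 CPM (SD, n = 3 each). All DKK1 libraries were above all control libraries, yet the log2 fold change of 0.04 (SE 0.03) passed the threshold neither without the block (adjusted p = 0.705) nor with it (0.245).
Cavin4 (ENSMUSG00000028348) lay between 1.20 and 1.42 CPM in control and between 0.979 and 1.61 CPM with DKK1. Its groups overlapped, and its log2 fold change of -0.12 had an SE of 0.26.

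At the neck, Ehd2 (ENSMUSG00000074364) was found at 610.1, 602 and 563.5 CPM in control and at 561, 551 and 531 CPM with DKK1. The highest DKK1 library was under the lowest control library by less than 3 CPM. Its log2 fold change was -0.12 (SE 0.04, adjusted p = 0.341), with the same value and an SE of 0.02 under the block (adjusted p = 0.00127).
Pacsin2 (ENSMUSG00000016664) was the most even of the set, at 126.7, 125.7 and 127 CPM in control and at 119.6, 119.5 and 120.3 CPM with DKK1. The groups were apart with little spread inside either. Counting error alone at 2774 to 4151 counts per library would give a wider spread, so the evenness is not read as a property of the gene. Its log2 fold change of -0.08 (SE 0.03) was not called unpaired (adjusted p = 0.351) or with the block (0.0666).

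**Figure D3:**
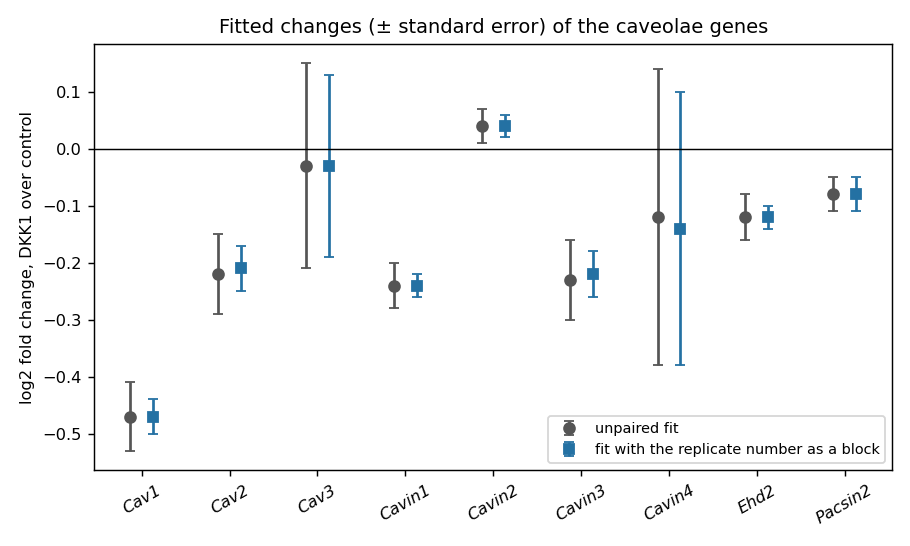
Log2 fold change of DKK1 over control for each gene, with bars of 1 standard error, in the unpaired fit (grey circles) and in the fit with the replicate number as a block (blue squares). Cav1 is lowest at -0.47, Cavin1, Cav2 and Cavin3 sit together from -0.24 to -0.21, Cavin2 lies just above 0, and Cav3 and Cavin4 carry the widest bars.

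Because a ratio of 2 genes within a library does not depend on how libraries are scaled, the balance between the coat genes was computed as well. Cav1 counts per Cavin1 count were 0.428, 0.452 and 0.438 in control replicates and 0.361, 0.384 and 0.384 in DKK1 replicates, lower in every DKK1 library. Cav1 per Cavin2 went from a mean of 0.759 ± 0.0430 to 0.534 ± 0.0442 (SD, n = 3 each), also without overlap. Cavin2 per Cavin1 was 0.593, 0.561 and 0.585 in control and 0.743, 0.670 and 0.708 with DKK1, so it was higher in every DKK1 library. As a share of the counts of the 4 cavin genes, Cavin2 made up 34.3% ± 0.663 in control and 38.9% ± 1.32 with DKK1, and Cavin1 59.3% ± 0.605 and 55.1% ± 0.992. Cavin3 per Cavin1, in contrast, kept overlapping values, 0.106 ± 0.00522 in control and 0.107 ± 0.00481 with DKK1. These ratios come from the same contrast and were not tested.

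**Figure D4:**
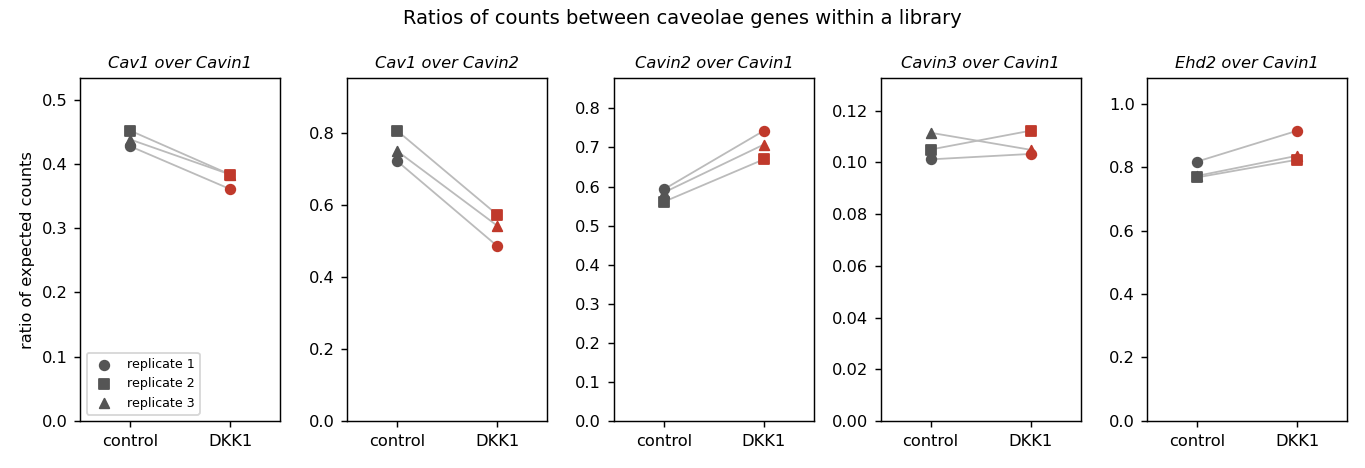
Ratios of expected counts between caveolae genes in each of the 3 control (grey) and 3 DKK1 (red) libraries, with lines joining the same replicate number and each vertical axis starting at 0. Cav1 per Cavin1 and Cav1 per Cavin2 are lower in every DKK1 library, Cavin2 per Cavin1 and Ehd2 per Cavin1 are higher in every one, and Cavin3 per Cavin1 overlaps.

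Markers of other cell types were set beside these values. The smooth muscle and pericyte list, whose 7 genes include Acta2 and Myh11, summed to 8961 to 10020 CPM in control and 7639 to 8959 CPM with DKK1, apart by only 2 CPM, and 1 of the 7 genes was called in the unpaired fit, Myh11, lower (log2 fold change -0.30, adjusted p = 0.00387). With the block, the fit that gave most calls among the caveolae genes, 5 of these 7 were lower: Acta2 (smooth muscle actin, log2 fold change -0.21, adjusted p = 4.16e-06), Myh11, Cnn1, Tagln and Cspg4. Of the 4 testable striated muscle genes, 0 were called unpaired and 2 with the block, Acta1 and Des, both lower (log2 fold changes -0.34 and -0.45). Of the 9 fibroblast genes, 0 were called unpaired, and with the block 5 were lower (Col1a1, Col1a2, Pdgfrb, Vim, Thy1) and 2 higher (Pdgfra, Dcn). The 7 macrophage and other leukocyte genes summed to 47.6 to 88.6 CPM in control and 57.4 to 99.1 CPM with DKK1, and 5 could be tested. Unpaired, 0 of these were called, and with the block Csf1r was lower (log2 fold change -0.25) and Adgre1 (0.54, adjusted p = 0.00179) and Marco (1.67, adjusted p = 2.51e-07) were higher. Over all tested genes 4.46% were called lower and 4.96% higher with the block. The 5 adipocyte genes summed to 7.64 to 9.93 CPM in control and 10.4 to 11.6 CPM with DKK1, without overlap. Only 2 of the 5 (Lipe and Fabp4) had enough counts to test, and 0 of these were called in either fit. The part of these cells in the lower Cav1 and Cavin1 values was not tested. Sums of the 7 endothelial markers were not separated by treatment (25.9 to 68.1 CPM in control, 23.3 to 67.7 with DKK1), nor were the 5 alveolar type 1 markers (8.21 to 15.1 and 8.41 to 14.0 CPM), and 0 genes of either list were called in the unpaired or the blocked edgeR fit. The epithelial (27.3 to 89.0 and 26.3 to 87.5 CPM) and mesothelial sums (23.4 to 53.6 and 24.6 to 55.3 CPM) overlapped too, with 0 calls in both fits. Without both replicate 3 libraries, the log2 fold change of Cav1 was -0.502 (adjusted p = 0.045), that of Cavin1 -0.262 (0.0943) and that of Cavin2 0.028 (0.869). The endothelial sums were high in replicate 3 of both groups, so this fit does not test the part of those cells in the group difference.

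Variation with the replicate number inside the groups was examined as well. The replicate terms share the blocked fit and its residual spread with the DKK1 term, so their calls are not independent of those above and are given as a description. The replicate terms of the blocked edgeR model were called for 5 of the 9 genes, Cav1 (adjusted p = 0.00318), Cav2 (0.0144), Cavin1 (0.0156), Ehd2 (0.0181) and Cavin3 (0.0268), against 12.9% of all tested genes. Relative to the group means, Cav1 deviated on the log2 scale by 0.11 in control and 0.10 in DKK1 replicate 2, and by -0.05 and -0.12 in the replicate 1 libraries. Cavin1 and Cavin3 were likewise highest in replicate 2 of both groups, and Cav2 was lowest in replicate 1 of both. Ehd2 had another order, lowest in replicate 3 of both groups (-0.08 and -0.05), and its call ended when replicates 1 and 2 alone were compared (adjusted p = 0.725), whereas the other 4 were still called. Cavin2 and Pacsin2 varied little with the number, within 0.04 for Cavin2, and neither passed (adjusted p = 0.473 and 1). The part of other cell types in this variation was not tested.

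**Figure D5:**
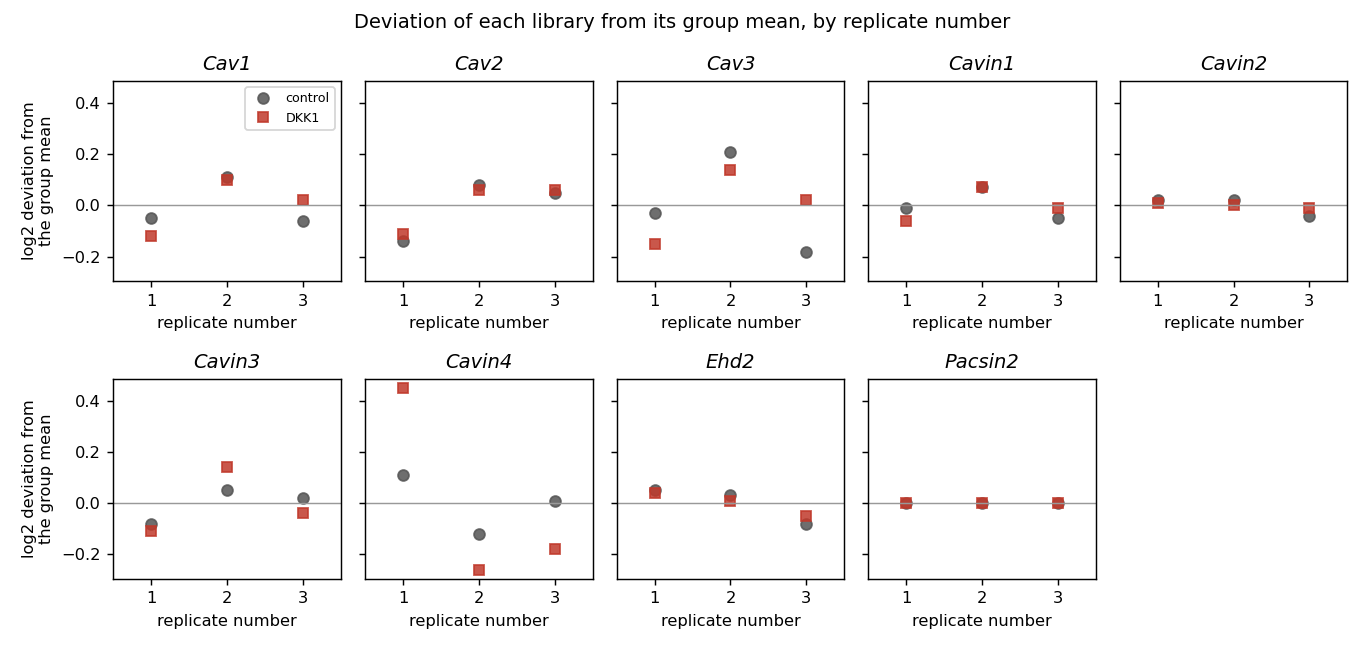
Log2 deviation of each library from the mean of its group, by replicate number, for the 3 control (grey circles) and 3 DKK1 (red squares) libraries. Control and DKK1 points of the same number lie close together for Cav1, Cav2, Cavin1, Cavin3 and Ehd2, with replicate 2 high for Cav1, Cavin1 and Cavin3, and all Pacsin2 points lie at 0.

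Which genes followed Cav1 over all 6 libraries was described by the root mean square difference between log2 CPM profiles, each centred on its own mean, among the 9222 other tested genes whose mean reached 10 CPM. The closest were the gene ENSMUSG00000089788, for which the name table gives no symbol (0.0748), the elastic fibre gene Fbln5 (0.0772), the collagen VI chain gene Col6a3 (0.0796), the adenylyl cyclase gene Adcy1 (0.0813) and the nuclear noncoding RNA gene Neat1 (0.0836). All 5 had log2 fold changes between -0.42 and -0.36, close to that of Cav1. Of the other caveolae genes, Cavin1 ranked 26 in likeness (0.118), Cavin3 40 (0.129) and Cav2 62 (0.142), Ehd2 and Pacsin2 came at 538 and 859, and Cavin2 at 5872 (0.269). The profiles share the group difference and the libraries, so the ranking describes these 6 samples and carries no test.

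Other genes tied to caveolae or to membrane coats were taken from 4 lists, whose counts stand beside these shares of all 14635 tested genes: 0.895% were called in either direction in the unpaired fit, where 10.6% were under 0.05 before adjustment. The blocked fit called 9.42%: the lower genes made up 4.46% and the higher 4.96% of all tested. Nothing is called particular to a list from its counts. Of 18 genes for proteins that bind, anchor or reside in caveolae, all tested, 0 were called in the unpaired edgeR fit, 3 had an unadjusted p under 0.05, and the median log2 fold change was 0.02; with the block 2 were called lower and 2 higher. The water channel gene Aqp1 had the largest difference, from 33.9 ± 9.23 to 24.1 ± 7.80 CPM (SD, n = 3 each; log2 fold change -0.49, adjusted p = 0.547, with the block 0.000139), with overlapping groups. Next came the fatty acid transporter gene Cd36, from 20.9 ± 12.1 to 26.2 ± 14.3 CPM (log2 fold change 0.31, adjusted p = 0.879, with the block 0.00418). Flna, whose product ties caveolae to actin, and the kinase gene Abl1 were the other 2 called with the block (log2 fold changes -0.10 and 0.09, adjusted p = 5e-04 and 0.0273).

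Among 5 relatives of the neck proteins (Ehd1, Ehd3, Ehd4, Pacsin1, Pacsin3), 0 were called unpaired, where 1 had an unadjusted p under 0.05, and their median log2 fold change was -0.07. With the block 1 of the 5 was called, where 9.42% of all tested genes were, and this was Ehd4, which went from 51.6 ± 3.05 to 45.03 ± 2.79 CPM (log2 fold change -0.20, adjusted p = 0.224 unpaired and 0.00556 with the block). Pacsin1 was under 1 CPM and had a log2 fold change of 0.17 (SE 0.38).

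Of 19 genes of other membrane coats (flotillins, clathrin, its adaptors and curvature proteins), 1 was called, higher, and the median log2 fold change was -0.05. This was Bin1, which encodes an amphiphysin that forms membrane tubules, at 147.3 ± 1.15 CPM in control and 182 ± 1.24 CPM with DKK1 (log2 fold change 0.30, SE 0.03, adjusted p = 0.00426). With the block 3 of the 19 were called lower as well, the flotillin gene Flot1, the clathrin light chain gene Clta and the AP-2 subunit gene Ap2a2, with log2 fold changes of -0.15, -0.08 and -0.10; 4.46% of all tested genes were called lower in that fit. Of 12 genes for lipids that caveolae need, 0 were called unpaired, where 1 had an unadjusted p under 0.05. Their median log2 fold change was -0.01. With the block 1 of the 12 was called, a share near the 9.42% of all tested genes, the phosphoinositide kinase gene Pip5k1a (77.9 ± 2.36 to 85.6 ± 1.83 CPM, log2 fold change 0.13, adjusted p = 0.219 unpaired and 0.0167 with the block). Its relative Pip5k1b, under 1 CPM, had the largest value of that list, 0.47 (SE 0.33, adjusted p = 0.699).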

How the data were processed

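RNA of 6 samples was analysed from 1 table of expected counts per gene, deposited unscaled by the authors; the table's name gives RSEM as their source. STAR, RSEM, edgeR 4.2.1 and the build GRCm38 (mm10) are named in the submitters' processing notes; their settings, the annotation release and the strand setting are not given in the sources used here. Symbols for 98.8% of identifiers, GENCODE M21 models and RefSeq promoters (GRCm38.p6) came from supplied tables.

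After rounding, tests ran in edgeR 4.0.16 under R 4.3.3 (filterByExpr, minimum count 10; TMM; quasi-likelihood test; Benjamini-Hochberg over 14635 genes; threshold 0.05). The scripts were tested on simulated data. Standard errors are the absolute log2 fold change over the square root of F. CPM use whole-library totals, and 3 counts, the floor for counting error alone, equal 0.0864 to 0.133 CPM. Deviations of same-numbered samples, from the numbers in the titles, correlated at 0.21 to 0.38 across genes (other pairs -0.27 to 0.07). A fit with the replicate block was therefore added beside the unpaired main fit. These correlations come from the same 6 samples, and what the number stands for is not given. All members were named, plus called or, failing those, the 2 largest changes of each list, and the 5 genes most like Cav1; other names were chosen after their values were seen. Members and lists were chosen with earlier results of these data known. Alternatives also used limma 3.58.1 and DESeq2 1.42.0.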

Additional observations from a re-analysis of the deposited data

How the results depend on the processing

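The unpaired fit called 1 of the 9 genes. Library totals alone, no low-count filter and DESeq2 each called 2 (Cav1 and Cavin1). The replicate block called 5, as did the blocked fit after removal of GC and length trends per library, and DESeq2 with the block called 4, all lower. Leaving out 1 library gave 0 to 1 calls. DESeq2 size factors, limma-voom, counts left unrounded, a stricter filter (at least 10 counts in all samples), the removal of both replicate 3 libraries and of the GC and length trend kept the count at 1. Cav1, Cav2, Cavin1, Cavin2, Cavin3, Ehd2 and Pacsin2 kept their sign in all 18 alternatives. Without 1 library each, the log2 fold change of Cav3 ran from -0.118 to 0.0878 and that of Cavin4 from -0.386 to 0.0148; their low counts limit both. Over all genes 131 were called, against 329 without the filter, 289 in DESeq2, 1379 with the block, 1317 with the block and the trends removed, 551 in DESeq2 with the block, and 36 to 139 without 1 library each. Besides Cav2, Cavin1, Cavin3 and Ehd2, the block changed the call of no member. The replicate-number calls stayed at 5 members under the other scalings and filters. They fell to 4 when replicates 1 and 2 alone were compared, where Ehd2 was no longer called (adjusted p = 0.725). The ratio of Cavin1 to Cav1 per kilobase in control was 1.01, and 1.79 with the longest transcript, by construction of the lengths. The replicate block raised the calls among the 54 genes of the other lists from 1 to 10. The 2 GC and length fits, DESeq2 with the block, the fit without replicate 3 and the comparison of replicates 1 and 2 were chosen after seeing the data.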
